A study of Mus musculus with 6 samples.

Results

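Antisense transcripts are RNAs made from the strand opposite a gene. In the series, which follows hindlimb skeletal muscle of newborn mice over the first 2 weeks after birth, 1468 of the 39010 listed genes carry the biotype antisense. The set described here was selected on level: 203 of them had 1 FPKM or more in 2 or more of the 6 libraries, after the symbols Gm12300, Nespos and Snhg9 were left out. FPKM is a fragment count divided by the length of the transcript and the size of the library, so levels of different genes are compared per length throughout. The mice were wild type on a mixed strain background and were sampled on days 2 (P2), 7 (P7) and 14 (P14) after birth, with 2 libraries per stage. The labels give no treatment, other genotype or sex. The labels give 200 ng of total RNA per library, a stranded kit and removal of ribosomal RNA. The design text calls the replicates biological without saying that they came from separate animals, so the p-values cover only the spread between these libraries. Sex differed between libraries. Xist, the RNA of the inactive X chromosome, had 0.104 and 74.7 FPKM at P2, 61.2 and 0.410 at P7, and 0.567 and 0.0346 at P14. Ddx3y, a Y-linked gene, had 13.5 and 0 FPKM at P2, 0.0120 and 17.2 at P7, and 28.4 and 24.5 at P14. By these markers both P14 libraries were male, whereas P2 and P7 each held a male and a female library and so RNA of more than 1 animal. Every comparison with P14 therefore sets male libraries against a stage of mixed sex.

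Some antisense transcripts silence the gene they overlap, as the transcription of Airn does to Igf2r on the paternal chromosome. Others are precursors of microRNAs, share a promoter region with a neighbouring gene, or have no known function. An antisense RNA whose exons lie opposite the exons of a coding gene holds the complement of that gene's sequence, and only the strand of a read tells both apart. Whether strand was used in the counting is not given in the sources used here. Where exons overlap, the reads of an antisense transcript and of its coding gene therefore cannot be told apart from these values.

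The biotype label was checked against the GENCODE M21 annotation of the same genome build (GRCm38). Of the 203 transcripts, 190 had an entry, 175 of them still of type antisense and 3 now annotated as protein-coding, among them 2010003O02Rik. A coding gene overlapped 182 members (89.7%), and the overlaps made 221 pairs, 192 of them on opposite strands and 13 on the same strand. The most common layout was an antisense transcript wholly inside the coding gene (107 members). A further 31 met a coding gene tail to tail, 20 head to head, and 5 spanned one. Exon bases were shared with a coding gene by 116 members, while 54 overlapped one without sharing any exon base and 20 overlapped none, all counted among the 190 with an entry. In 16 members every exon base lay in exons of a coding gene. The median transcript had 975 exon bases, and 10 of the 190 had a single exon.

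The rule on levels chose the members, so the levels are a description. The median member averaged 1.47 FPKM over the 6 libraries, against 4.99 FPKM for tested protein-coding genes and 1.89 FPKM for tested lincRNAs. Only 32 members averaged at least 5 FPKM and 11 at least 10 FPKM. All 6 libraries reached 1 FPKM for 77 members, and 43 members reached it in exactly 2 libraries. Just inside the threshold stood Gm17096, C79798 and Gm15050, whose second-highest values were 1.01 FPKM each. Just outside it stood 9230115E21Rik, Gm14453 and Gm12395 with 0.998, 0.994 and 0.983 FPKM. The summed FPKM of the 203 members was 559.1 and 624.5 at P2, 584.4 and 599.2 at P7, and 858.2 and 751.6 at P14. Both P14 libraries stood above the other 4. Log2 values of the members correlated between both libraries of a stage with r of 0.873 (P2), 0.896 (P7) and 0.901 (P14), across genes, which are not independent replicates. Between 12175 and 13337 genes of all biotypes reached 1 FPKM in a library, and the absolute depth is unknown.

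The most abundant antisense transcript was 2310050B05Rik, named Atcayos in GENCODE M21. It lies on the plus strand at chr10:81194609-81210877 and overlaps Nmrk2, a nicotinamide riboside kinase of muscle, and Atcay. Its layout is tail to tail with the opposite-strand gene that it overlaps most, and was not determined for the other. It had 48.0 and 48.8 FPKM at P2, 54.6 and 59.0 at P7, and 111 and 89.0 at P14, with no overlap between P14 and the earlier stages. It averaged 100.2 ± 15.8 FPKM at P14 and 48.4 ± 0.537 at P2 (SD, n = 2 each), and rose by a log2 difference of 1.03 (SE 0.19, limma adjusted p = 0.0130). Nmrk2 rose as well, with a log2 difference of 1.49 (adjusted p = 0.00309) and 26.3 and 22.3 FPKM at P14, against 7.55 and 8.44 FPKM at P2. Atcay had 6.71 and 6.63 FPKM at P14, against 4.46 and 6.59 FPKM at P2, and was not called. The rise of 2310050B05Rik at P14 was lost without P14 replicate 1 (adjusted p = 0.0902).

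Next in level came 4933427J07Rik, which overlaps no coding gene, with 43.4 and 26.2 FPKM at P2, 46.2 and 39.5 at P7, and 18.01 and 28.2 at P14. It was not called in any comparison. Gm21747, named Mir133a-1hg in GENCODE M21, is the host transcript of a microRNA of muscle and runs opposite an intron of Mib1, a ubiquitin ligase of Notch signalling. It had 16.8 and 16.4 FPKM at P2, 20.9 and 22.5 at P7, and 35.5 and 29.0 at P14. P14 stood above P2 by a log2 difference of 0.91 (SE 0.17, adjusted p = 0.0133), a call lost without P14 replicate 1 (adjusted p = 0.0925). Mib1, with 14.1 and 12.2 FPKM at P14 and 12.9 and 14.7 FPKM at P2, was not called (log2 difference -0.07).

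Gm16344, in a locus shared with Myo7b, stood at 16.3 and 16.6 FPKM at P2, 13.3 and 11.8 at P7, and 11.2 and 12.6 at P14 and was not called. Gm15648, which overlaps Ube2l3, had 7.60 and 9.65 FPKM at P2, 7.53 and 8.12 at P7, and 17.5 and 11.5 at P14. It was not called either (adjusted p = 0.0751 for P14 versus P2). The other abundant members, Airn, Gm20659, Gm11716, Gm15655 and Gm16567, are described with their loci.

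At P14, more of these antisense transcripts were called higher than lower relative to P2 in the values as deposited. Of the 203 members, 39 (19.2%) were called higher at P14 than at P2, beside 11.5% of all 13566 tested genes, and 9 (4.43%) were called lower, beside 12.9% of all tested genes. A call is an adjusted p below 0.05 in 1 limma fit over all tested genes on log2(FPKM + 1), a scale that understates the change of low genes. Members reaching 1 FPKM at a single stage had to differ between stages, since that stage let them in. There were 19 of these, 15 at P14, and 11 of the 19 were called higher. Among the 77 members above 1 FPKM in every library, 17 were called higher and 6 lower. Tested lincRNAs, the other large class of long non-coding RNA, had 8.61% called higher and 13.5% lower. The split depends on the scaling of the libraries. After scaling each library to an equal sum over protein-coding genes, 32 members were higher and 26 lower, beside 9.33% and 36.6% of all tested genes. That scaling put the median log2 difference of all tested genes at -0.337, instead of -0.0458 as deposited, and the median of the members at -0.170, instead of 0.0556. Median-of-ratios scaling gave 46 higher and 7 lower, beside 18.6% and 15.4% of all tested genes. Without P2 replicate 2, the female library of that stage, 42 members were higher and 8 lower, beside 15.8% and 9.34% of all tested genes.

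**Figure D1:**
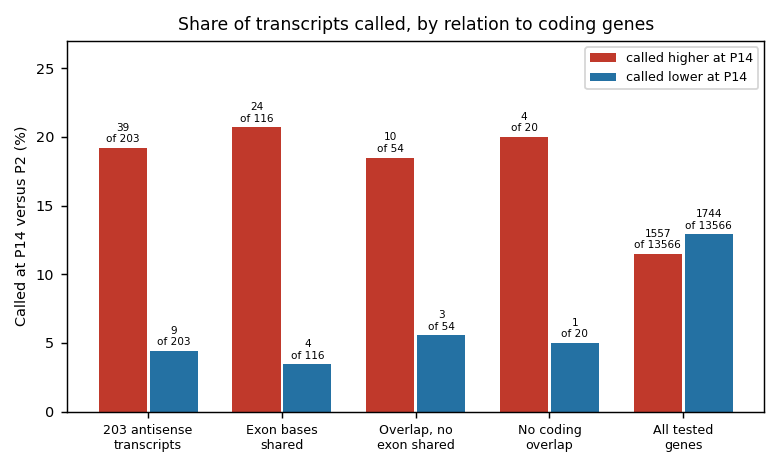
Share of transcripts called higher (red) or lower (blue) at P14 versus P2, in percent, with counts above the bars, for the 203 antisense transcripts, 3 classes of them by overlap with coding genes, and all tested genes. Higher calls outnumber lower calls in each antisense class, while over all tested genes 11.5% are higher and 12.9% lower.

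The calls spread over the layouts. Of the 116 members sharing exon bases with a coding gene, 24 were higher and 4 lower at P14. Of the 54 that overlapped a coding gene without shared exon bases, 10 were higher and 3 lower, and of the 20 with no overlap, 4 were higher and 1 lower. Many calls did not hold when a library was left out. Of the 39 calls higher, 10 held without each library in turn: 9430073C21Rik, C130080G10Rik, Gm11716, Gm12199, Gm12224, Gm13601, Gm15856, Gm16062, Gm16124 and Gm26740. Of the 9 calls lower, 3 held, among them Dnm3os and Igf2os. With all libraries the whole count was 48 of 203, where 24.3% of all tested genes were called. Leaving out any library leaves its stage with a single one. Fits without either P14 library, either P7 library or P2 replicate 1 called fewer members and also fewer of all tested genes. The losses are therefore not particular to the antisense transcripts. Without P2 replicate 2, more members and more of all tested genes were called than with all libraries. For all 48 the P14 minus P2 difference is the same without either P7 library, so calls lost there were lost with the same difference and fewer samples to estimate the spread.

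**Figure D2:**
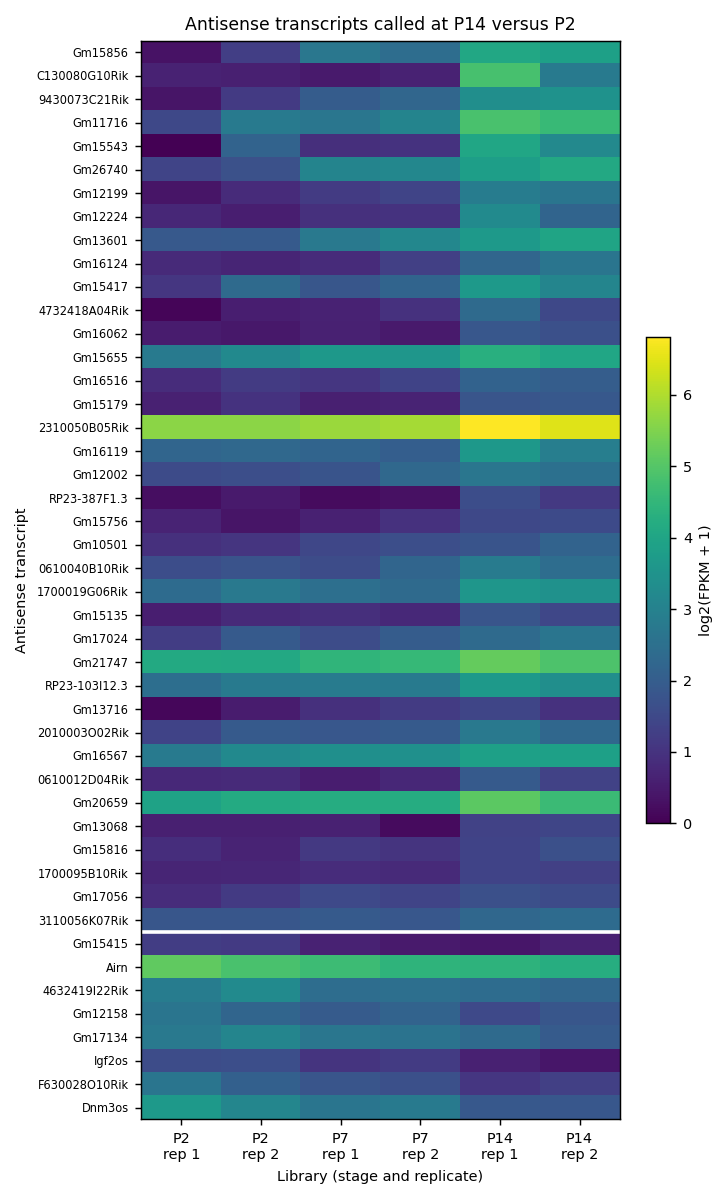
Values of 46 of the 48 antisense transcripts called at P14 versus P2, as log2(FPKM + 1) in each of the 6 libraries (columns), ordered from the largest rise at the top to the largest fall at the bottom. The white line parts the 38 shown that rose from the 8 shown that fell.

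The largest rise belonged to Gm15856, an RNA inside Tuba8, which encodes an alpha-tubulin of muscle and testis. It lies on the minus strand at chr6:121223692-121226153. It had 0.260 and 1.40 FPKM at P2, 5.50 and 4.36 at P7, and 16.1 and 13.8 at P14, so that no stages overlapped. P14 exceeded P2 by a log2 difference of 3.19 (SE 0.30, adjusted p = 0.00209). Tuba8 moved alongside, with 38.7 and 27.5 FPKM at P14 and 0.698 and 2.90 FPKM at P2 (log2 difference 3.71, adjusted p = 0.00257). The antisense level averaged 49.1% of the Tuba8 level, and 368 of its 1162 exon bases lie in Tuba8 exons.

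A second large rise came from the myosin locus. 9430073C21Rik lies on the minus strand at chr11:67195680-67199234 and meets the end of Myh2, the fast IIA myosin heavy chain gene, tail to tail. It had 0.307 and 1.22 FPKM at P2, 2.95 and 3.71 at P7, and 9.23 and 10.2 at P14, with the stages fully apart. P14 stood above P2 by a log2 difference of 2.65 (SE 0.26, adjusted p = 0.00221). Myh2 had 211 and 301 FPKM at P14 and 15.5 and 35.6 FPKM at P2 (log2 difference 3.36, adjusted p = 0.00395). The antisense level was 3.72% of that of Myh2, and 237 of 2173 exon bases were shared. The coding exons of the myosin heavy chain genes are close copies of each other, so reads from these shared bases are uncertain.

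Another muscle locus was Xirp2, which encodes an actin-binding repeat protein of the intercalated disc and of muscle attachment sites. Gm13601 lies inside it on the minus strand at chr2:67491044-67516525. It had 2.72 and 2.82 FPKM at P2, 5.74 and 7.94 at P7, and 11.6 and 14.9 at P14. P14 exceeded P2 by a log2 difference of 1.91 (SE 0.20, adjusted p = 0.00267). Xirp2 had 182 and 145 FPKM at P14 and 20.7 and 30.6 FPKM at P2 (log2 difference 2.64, adjusted p = 0.00213).

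The bases that Gm15856, 9430073C21Rik and Gm13601 share with coding sequence show what is at stake in the counting. Each line gives 120 bases of GRCm38, read 5' to 3' on the minus strand as in the antisense RNA, every one of them in an exon of the antisense transcript and in coding sequence of the partner. The last line is the first stretch read on the strand of Tuba8, as its messenger RNA has it.
Gm15856, chr6:121225957-121226076, minus strand: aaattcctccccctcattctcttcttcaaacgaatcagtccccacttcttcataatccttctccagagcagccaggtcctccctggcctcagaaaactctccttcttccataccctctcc
9430073C21Rik, chr11:67197266-67197385, minus strand: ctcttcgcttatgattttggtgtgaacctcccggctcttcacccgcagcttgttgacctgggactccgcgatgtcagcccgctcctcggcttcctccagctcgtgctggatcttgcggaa
Gm13601, chr2:67516406-67516525, minus strand: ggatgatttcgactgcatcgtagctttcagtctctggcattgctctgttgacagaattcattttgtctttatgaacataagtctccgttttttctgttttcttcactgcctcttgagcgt
Tuba8, chr6:121225957-121226076, plus strand: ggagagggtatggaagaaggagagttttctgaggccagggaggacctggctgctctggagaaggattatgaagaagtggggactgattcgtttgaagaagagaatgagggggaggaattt

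Other rises came from transcripts that share no exon base with a coding gene. Gm26740 runs on the minus strand at chr10:22187013-22302835, opposite H60b, a ligand of a receptor on natural killer cells, with no exon base in common. It had 1.62 and 2.23 FPKM at P2, 7.34 and 7.89 at P7, and 13.1 and 16.4 at P14, rising at each step without overlap. The log2 difference of P14 to P2 was 2.43 (SE 0.18, adjusted p = 0.00110), the smallest adjusted p of any member. H60b itself had 1.2 and 0.880 FPKM at P14 and 0.361 and 0.470 FPKM at P2 and was not called (adjusted p = 0.106).

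Gm11716 lies in an intron of Pitpnc1, a phosphatidylinositol transfer protein, on the opposite strand at chr11:107338050-107344804. It had 1.76 and 6.02 FPKM at P2, 5.38 and 7.40 at P7, and 28.1 and 23.0 at P14. Both P14 libraries stood above all others, while P2 and P7 overlapped. P14 exceeded P2 by a log2 difference of 2.59 (SE 0.41, adjusted p = 0.00796). Pitpnc1 rose less, with 17.1 and 18.5 FPKM at P14 and 6.72 and 10.8 FPKM at P2 (log2 difference 0.98, adjusted p = 0.0231).

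Gm12199 lies in an intron of Adamts2, the protease that trims procollagen, at chr11:50717670-50718915 on the minus strand. It had 0.303 and 0.785 FPKM at P2, 1.28 and 1.64 at P7, and 6.24 and 5.26 at P14. P14 stood above P2 by a log2 difference of 2.14 (SE 0.20, adjusted p = 0.00209). Adamts2 had 6.68 and 6.82 FPKM at P14, against 6.34 and 9.30 FPKM at P2, a log2 difference of -0.17 (adjusted p = 0.565). Gm12224, inside Acsl6, an acyl-CoA synthetase, rose together with it. Gm12224 had 8.52 and 3.54 FPKM at P14, against 0.702 and 0.497 FPKM at P2 (log2 difference 2.04, adjusted p = 0.00807), and Acsl6 had 7.49 and 6.73 FPKM at P14, against 0.710 and 1.29 FPKM at P2 (log2 difference 2.03, adjusted p = 0.00193).

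C130080G10Rik overlaps no coding gene but starts 787 bases from the start of Actc1, the cardiac alpha-actin gene that fetal skeletal muscle also uses, and runs the other way, on the plus strand at chr2:114054335-114064868. It had 0.583 and 0.506 FPKM at P2, 0.418 and 0.573 at P7, and 27.5 and 5.92 at P14. P2 and P7 overlapped, both P14 libraries were far above them, and the P14 libraries differed widely from each other. It reached 1 FPKM only at P14 and so entered the set through the stage where it was high. P14 exceeded P2 by a log2 difference of 3.18 (SE 0.57, adjusted p = 0.0113), which became 2.16 when P14 replicate 1 was left out and 4.20 when replicate 2 was. Actc1 had 305 and 309 FPKM at P2, 162 and 216 at P7, and 1594 and 792 at P14, where it was higher than at P2 (log2 difference 1.87, adjusted p = 0.0141), with replicate 1 above replicate 2 at P14 in both genes.

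Gm15543, in an intron of the scarcely detected Casc1, was listed at 0 in P2 replicate 1 and at 3.46 FPKM in P2 replicate 2. It had 0.883 and 1.01 FPKM at P7, and 15.4 and 8.19 at P14. P14 stood above P2 by a log2 difference of 2.54 (SE 0.64, adjusted p = 0.0311), a call lost without either P7 or either P14 library (adjusted p from 0.0557 to 0.145). The difference became 1.46 when P2 replicate 1 was left out and 3.62 when replicate 2 was.

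The promoters of C130080G10Rik and Gm15543 are shown because they belong to the largest rises with a RefSeq entry, that of Dnm3os because it led the falls. Each is 300 bases of GRCm38.p6 from RefSeq, 250 before and 50 after the annotated start, read 5' to 3' on the plus strand on which these genes lie. RefSeq held a promoter for 78 of the 203 members, 51 of them starting within 200 bases of the deposited start. Capitals mark CAGCTG, a form of the E-box bound by myogenic factors, sought on both strands, which reads the same on each. A form of the core of the MEF2 site that begins with C and ends with G was sought too, as were the letters TATAAA. Both were sought on both strands and are not in these windows. Other forms of the MEF2 core were not sought, so the search does not show that they are absent. The window of C130080G10Rik holds ttaaaaatag, which is such a form and is left in small letters.
C130080G10Rik, chr2:114054146-114054445: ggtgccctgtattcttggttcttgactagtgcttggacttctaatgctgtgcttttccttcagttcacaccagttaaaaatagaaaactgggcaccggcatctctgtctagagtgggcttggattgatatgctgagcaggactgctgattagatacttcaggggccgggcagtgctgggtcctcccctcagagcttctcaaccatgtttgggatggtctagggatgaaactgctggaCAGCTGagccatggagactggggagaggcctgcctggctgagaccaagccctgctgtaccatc
Gm15543, chr6:145182025-145182324: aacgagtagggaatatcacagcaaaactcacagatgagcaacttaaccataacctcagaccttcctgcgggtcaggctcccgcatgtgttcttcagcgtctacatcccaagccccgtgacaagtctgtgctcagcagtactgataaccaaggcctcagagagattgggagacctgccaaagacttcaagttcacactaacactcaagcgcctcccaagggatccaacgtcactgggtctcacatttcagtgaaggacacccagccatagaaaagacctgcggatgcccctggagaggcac
Dnm3os, chr1:162217373-162217672: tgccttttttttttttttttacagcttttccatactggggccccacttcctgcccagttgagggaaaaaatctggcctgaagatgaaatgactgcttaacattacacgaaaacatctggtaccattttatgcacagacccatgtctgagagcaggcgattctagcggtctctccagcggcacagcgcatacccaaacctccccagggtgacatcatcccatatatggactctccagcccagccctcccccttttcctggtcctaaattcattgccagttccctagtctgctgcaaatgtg
Of the 32851 promoters of this length in the table, 16.3% hold CAGCTG, 3.69% hold the sought form of the MEF2 core and 13.6% hold TATAAA. A match is therefore a description only. Windows of Gm13601 and F630028O10Rik, not printed, were searched too and hold none of these motifs, which makes 1 of 5 windows with CAGCTG. GC content was 52.7% for C130080G10Rik, 52.3% for Gm15543 and 48.7% for Dnm3os, beside a median of 52.7% over all promoters.

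Among the abundant members wholly inside coding exons, Gm15655 in Maf, a transcription factor gene, had 5.88 and 8.32 FPKM at P2, 11.4 and 10.9 at P7, and 18.6 and 15.5 at P14. It rose by a log2 difference of 1.17 (SE 0.20, adjusted p = 0.00981), lost without P14 replicate 1 (adjusted p = 0.0662). Maf rose by 1.63 (adjusted p = 0.00532). Gm16567, whose exons all lie in those of C1s, a complement protease, had 6.06 and 8.42 FPKM at P2, 9.50 and 9.72 at P7, and 13.6 and 13.8 at P14. Its log2 difference for P14 versus P2 was 0.85 (SE 0.18, adjusted p = 0.0193) and that of C1s was 0.89 (adjusted p = 0.0358). Gm20659 in Dusp3, a dual-specificity phosphatase, had 14.1 and 16.9 FPKM at P2, 17.5 and 17.6 at P7, and 33.1 and 23.9 at P14, with a log2 difference of 0.83 (SE 0.21, adjusted p = 0.0294). Dusp3 had nearly the same levels, 13.4 and 19.4 FPKM at P2, 15.2 and 15.6 at P7, and 27.3 and 24.4 at P14, and was not called (log2 difference 0.64, adjusted p = 0.0636). The calls of Gm16567 and Gm20659 were each lost when 1 of 4 libraries was left out, with adjusted p up to 0.0953 and 0.164.

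**Figure D3:**
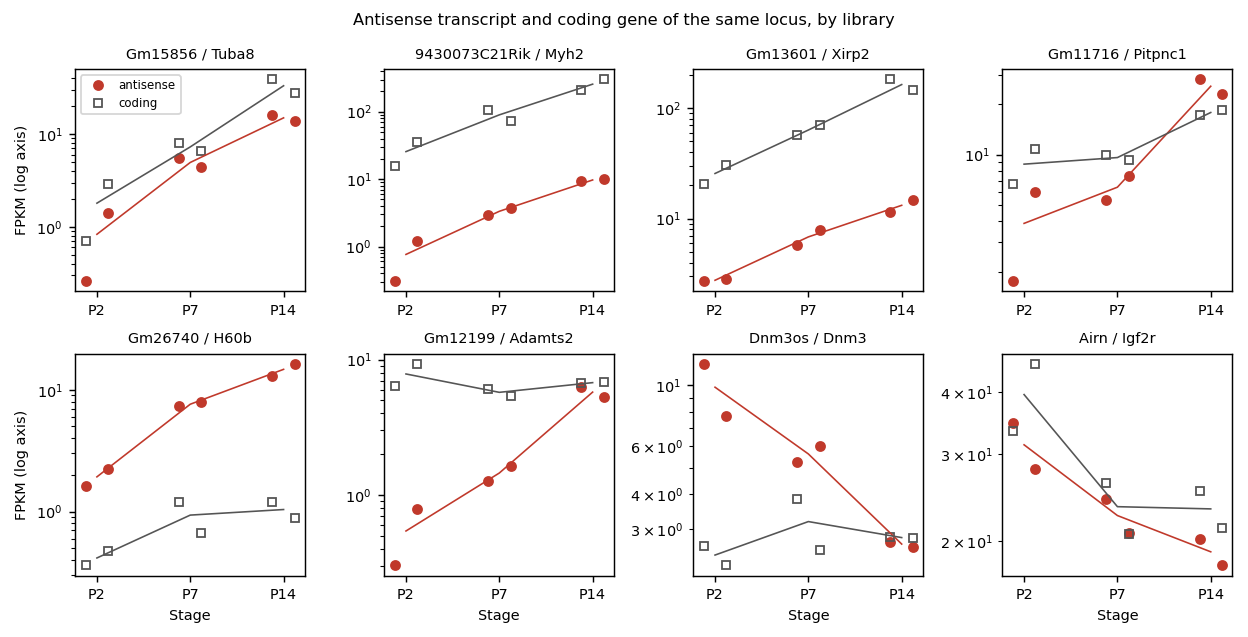
FPKM (log axis) of 8 antisense transcripts (filled circles) and of the coding gene of the same locus (open squares) in each library at P2, P7 and P14, with lines through the stage means. The members of Tuba8, Myh2 and Xirp2 climb with their coding gene, Gm26740 and Gm12199 climb beside H60b and Adamts2, which were not called, and Dnm3os falls while Dnm3 stays between 2.21 and 3.86 FPKM.

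Falling transcripts were led by Dnm3os, the precursor RNA of a microRNA cluster inside Dnm3 that is active in mesenchyme and growing bone. It is a single exon of 7928 bases on the plus strand at chr1:162217623-162225550. It had 11.9 and 7.69 FPKM at P2, 5.24 and 6.0 at P7, and 2.70 and 2.58 at P14, with the stages fully apart. It averaged 2.64 ± 0.0803 FPKM at P14 and 9.82 ± 3.01 FPKM at P2 (SD, n = 2 each), a log2 difference of -1.54 (SE 0.21, adjusted p = 0.00541). Dnm3, a dynamin, shares no exon base with it and had 2.81 and 2.77 FPKM at P14 and 2.61 and 2.21 FPKM at P2 (log2 difference 0.15, adjusted p = 0.584). On the list of cartilage and bone markers, 5 of 7 genes were called lower at P14 than at P2, beside 12.9% of all tested genes. The summed level of the list was 5.56 and 4.78 FPKM at P14, against 227 and 88.2 FPKM at P2. Of these markers Ibsp was at 0 in both P14 libraries. Their part in the fall of Dnm3os was not tested.

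F630028O10Rik, on the plus strand of chrX:96239942-96243636, overlaps no coding gene and holds the sequence of miR-223, a microRNA of neutrophils and other myeloid cells. It had 5.31 and 3.23 FPKM at P2, 2.48 and 2.17 at P7, and 1.12 and 1.43 at P14, each stage below the one before. P14 fell by 1.19 on the log2 scale from P2 (SE 0.22, adjusted p = 0.0123), which was lost without P14 replicate 1 (adjusted p = 0.0747). All 7 neutrophil and marrow markers were called lower at P14 than at P2, beside 12.9% of all tested genes. Their summed level was 282 and 166 FPKM at P2, 83.7 and 34.1 at P7, and 3.48 and 2.39 at P14. Elane and Camp were at 0 in both P14 libraries. The part of these cells in the fall of F630028O10Rik was not tested. In bulk tissue, fewer cells of a type and less RNA per cell cannot be told apart.

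The mature microRNAs of both hosts, from RefSeq on GRCm38.p6, are given with the seed, bases 2 to 8, in capitals, since the seed decides which messages a microRNA pairs with. Their own levels were not measured by these libraries. All lie on the plus strand, as their hosts do, and no seed occurs more than once among them.
miR-199a-5p in Dnm3os, chr1:162217844-162217866: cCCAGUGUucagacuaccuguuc
miR-199a-3p in Dnm3os, chr1:162217883-162217904: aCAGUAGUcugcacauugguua
miR-214-5p in Dnm3os, chr1:162223397-162223418: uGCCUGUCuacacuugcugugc
miR-214-3p in Dnm3os, chr1:162223438-162223459: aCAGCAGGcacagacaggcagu
miR-223-5p in F630028O10Rik, chrX:96242842-96242864: cGUGUAUUugacaagcugaguug
miR-223-3p in F630028O10Rik, chrX:96242884-96242905: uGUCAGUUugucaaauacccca

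On a fixed list of imprinted genes, 2 members overlapped a listed gene, and both were called lower at P14. Imprinted loci outside that list were not looked for. Airn, whose transcription silences Igf2r in cis, lies on the plus strand at chr17:12741311-12860122. It had 34.6 and 28.0 FPKM at P2, 24.3 and 20.7 at P7, and 20.2 and 17.9 at P14, with P14 below every earlier library. Its log2 difference for P14 versus P2 was -0.68 (SE 0.19, adjusted p = 0.0413), a call lost in 5 of the 6 fits that left out a library (all but the one without P2 replicate 2, adjusted p up to 0.175). Igf2r, whose receptor takes up and clears IGF2, had 25.2 and 21.2 FPKM at P14 and 33.4 and 45.6 FPKM at P2. Its log2 difference was -0.73 with an adjusted p of 0.0561, so it was not called. The 2 genes share no exon base.

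Igf2os, opposite the growth factor gene Igf2 at chr7:142659693-142670356, had 1.99 and 2.13 FPKM at P2, 1.05 and 1.27 at P7, and 0.550 and 0.324 at P14. No stages overlapped, and P14 fell by 1.10 on the log2 scale from P2 (SE 0.17, adjusted p = 0.00727). Igf2 had 177 and 163 FPKM at P14 and 445 and 585 FPKM at P2 (log2 difference -1.58, adjusted p = 0.00628). On the list of imprinted genes, 9 of 15 tested genes were called lower at P14 relative to P2 and 1 higher. Of all tested genes, 12.9% were called lower and 11.5% higher. The list had a median log2 difference of -1.25, beside -0.0458 for all tested genes. Among the other named imprinted antisense RNAs, Tsix stayed at or below 0.0513 FPKM in every library.

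Other members were called lower as well. Gm17134 in Ptbp1, a splicing repressor, had 4.09 and 2.92 FPKM at P14 and 5.75 and 7.60 FPKM at P2 (log2 difference -0.77, adjusted p = 0.0326), and Ptbp1 fell too (-1.04, adjusted p = 0.0167). Gm12158 in Ebf1, a transcription factor gene, had 1.86 and 2.57 FPKM at P14 and 5.21 and 3.64 FPKM at P2 (log2 difference -0.75, adjusted p = 0.0415), while Ebf1 was not called (-0.44). The calls of Gm17134 and Gm12158 were each lost without any one of 5 libraries, with adjusted p up to 0.156 and 0.207. Also called lower were 4632419I22Rik, which overlaps Ints2 and Med13, and Gm15415 in Tenm4.

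At P7, 1 antisense transcript was called relative to P2. This was Gm26740, with 7.34 and 7.89 FPKM at P7 and 1.62 and 2.23 FPKM at P2 (log2 difference 1.56, SE 0.18, adjusted p = 0.0317). The call was lost without P2 replicate 1 or either P7 library (adjusted p up to 0.286). That is 0.493% of the members called higher, beside 0.111% of all tested genes, and no member was called lower by limma, beside 1.18% of all tested genes, or 1.29% either way. At an unadjusted p below 0.05, 13 members were higher and 21 lower at P7, beside 1.84% and 25.6% of all tested genes. The medians were -0.0778 for the members and -0.271 for all tested genes as deposited. With median-of-ratios scaling they were 0.148 and 0.00344.

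From P7 to P14, 22 members (10.8%) were called higher, beside 8.75% of all tested genes, and 3 (1.48%) lower, beside 1.60% of all tested genes, or 10.3% either way. The medians were 0.185 for the members and 0.230 for all tested genes. Of the 22 called higher, 9 were among the 19 members that reached 1 FPKM at a single stage, 15 of them at P14. That stage let these members in, so they had to differ between stages. None of the 19 was called lower. The split moved with the scaling, to 18 higher and 11 lower with median-of-ratios scaling, beside 7.81% and 5.44% of all tested genes. It was 8 higher and 16 lower with equal protein-coding sums, beside 3.95% and 10.5%. No call held when each library was left out in turn. Leaving out a P7 or a P14 library, so that its stage had a single one, took away most calls. It did so for the members and for all tested genes alike. Without either P2 library, more members and more of all tested genes were called than with all libraries. No member was called both ways in sequence, that is, higher at P7 than P2 and lower at P14 than P7 or the reverse.

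The largest differences between P14 and P7 were C130080G10Rik (log2 difference 3.23, adjusted p = 0.0288), Gm15543 (2.66, adjusted p = 0.0478), Gm11716 (1.85, adjusted p = 0.0417), Gm12224 (1.74, adjusted p = 0.0316) and Gm12199 (1.46, adjusted p = 0.0185). 1110006G14Rik, named Sox6os in GENCODE M21 and lying inside Sox6, a repressor of slow fibre genes, also belonged to them. It had 0.636 and 2.196 FPKM at P2, 0.447 FPKM and a listed 0 at P7, and 4.09 and 1.98 at P14. P14 exceeded P7 by a log2 difference of 1.70 (SE 0.39, adjusted p = 0.0443), and P14 overlapped P2. Sox6 had 17.7 and 14.6 FPKM at P14 and 8.13 and 9.14 FPKM at P7 (log2 difference 0.83, adjusted p = 0.0372). The 2 share no exon base.

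The 3 members that fell from P7 were Gm15716 in the Slc18a1 locus, Gm12735 in Drg1 and Gm17146 in Rit1. Gm15716 had 0.955 and 1.54 FPKM at P14 and 3.90 and 6.69 FPKM at P7 (log2 difference -1.46, SE 0.30, adjusted p = 0.0357). Gm12735 was listed at 0 and had 0.723 FPKM at P14, against 1.94 and 2.46 FPKM at P7 (log2 difference -1.28, SE 0.31, adjusted p = 0.0493). Gm17146 had 2.55 and 2.46 FPKM at P14 and 4.73 and 7.00 FPKM at P7 (log2 difference -0.95, SE 0.21, adjusted p = 0.0410). None of the 3 was called at P14 versus P2. In GENCODE M21, Gm12735 and Gm17146 lie on the same strand as Drg1 and Rit1, so antisense is the deposited label and not their place to these genes.

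Where an antisense transcript and the coding gene it overlaps were both called, they were called in the same direction. Across 195 pairs in which both were tested, 19 had both higher and 5 both lower at P14 relative to P2. Of these, 16 and 4 were pairs that share exon bases, where reads cannot be told apart, and the 59 pairs that share none had 3 both higher and 0 both lower. In 18 pairs the antisense transcript was higher and the coding gene not called, in 5 it was lower and the coding gene not called, and in 28 the coding gene alone was called, 14 each way. No pair was called in opposite directions. Of all tested genes, 11.5% were called higher and 12.9% lower. Such calls were not counted for other non-coding genes and the coding genes they overlap. The shared direction is therefore not shown to be particular to antisense transcripts. In 52 pairs the signs differed, and in 1 of these both unadjusted p were below 0.05. Pearson's r of the log2 differences was 0.651 over all pairs, 0.753 over the 122 pairs that share exon bases and 0.403 over the 59 that do not (Spearman's rho 0.619, 0.665 and 0.532). These are descriptions across loci, which share libraries and, in the exon-sharing pairs, may share reads.

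**Figure D4:**
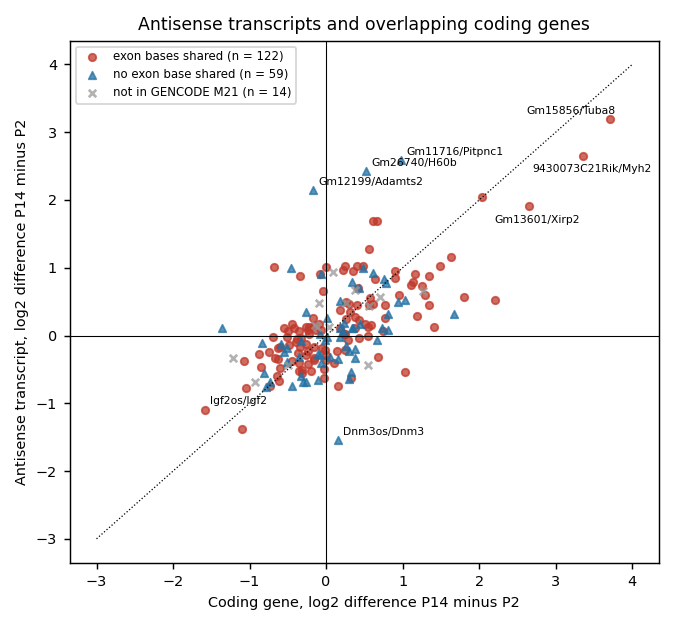
Log2 difference P14 minus P2 of the coding gene (x axis) and of the antisense transcript overlapping it (y axis) for 195 pairs, with the diagonal dotted. Pairs sharing exon bases (red circles, r 0.753) and pairs that share none (blue triangles, r 0.403) are marked apart, and Gm26740, Gm12199 and Dnm3os lie far from the diagonal.

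Whether an antisense transcript changed by a different amount than its coding gene was tested on the log2 ratio in a limma fit over 916 pairs of any non-coding gene with an overlapping coding gene. No member pair of the 195 was called, with 0.109% of all pairs called, and the smallest adjusted p of a member pair was 0.0542. At an unadjusted p below 0.05 there were 33 member pairs, 17 with the ratio higher and 16 lower at P14, where all pairs had 15.4% at that level. The largest gains in the ratio were Gm12199 over Adamts2 (log2 ratio difference 2.31), Gm26740 over H60b (1.90) and Gm16119 over Znf512b (1.69), and the largest losses Dnm3os over Dnm3 (-1.70) and Gm17224 over Casq1 (-1.68). These 5 pairs were chosen after their values were seen.

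In level, the antisense transcript stayed below its coding gene in most pairs. It was above it in 27 of 195 pairs, and the median pair had the antisense at 26.4% of the coding level, 27.8% with shared exon bases and 23.1% without. Annotated antisense genes whose exons lie at least 80% within exons of 1 coding gene give the levels listed where most bases are shared. There were 60 such pairs, 23 of them with a member. The members stood at a median of 59.7% of the coding level, between 5.57% and 311%, and a member had to reach 1 FPKM to be counted. Of the 60 pairs, 5 had a coding gene averaging at least 20 FPKM, and 2 of these hold a member. They are Gm11583 in Kpnb1, at 22.3% of the coding level, and Gm17134 in Ptbp1, at 25.1%. The others hold genes outside the set and give the other end. Gm13938, with 91.9% of its exon bases in exons of Ttn, averaged 0.158 FPKM beside 563 FPKM. That mean of Ttn takes in a listed 0 in P14 replicate 1, beside 926 FPKM in P14 replicate 2. Gm15976, with 83.0% of its exon bases in exons of Atp5o, an ATP synthase subunit gene, was listed at 0 beside a mean of 249.6 FPKM for Atp5o. Gm12999, wholly in exons of Atpif1, averaged 0.383 FPKM beside 49.9 FPKM. At Dusp3, by contrast, Gm20659 had 106.7% of the coding level. These examples were chosen after their values were seen.

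Muscle fibre genes are represented by 5 members. Of 48 tested genes on the list of fibre genes, 28 were called higher and 4 lower at P14 relative to P2. The shares of all tested genes were 11.5% and 12.9%. The list had a median log2 difference of 1.21, beside -0.0458 for all tested genes. Besides 9430073C21Rik at Myh2 and Gm13601 at Xirp2, Gm15179 meets Des, the muscle intermediate filament gene, tail to tail. Gm15179 had 0.531 and 0.994 FPKM at P2, 0.504 and 0.600 at P7, and 2.48 and 2.64 at P14 (P14 versus P2, log2 difference 1.03, adjusted p = 0.0115). As it reached 1 FPKM only at P14, it entered the set through the stage where it was high. Des had 256 and 209 FPKM at P14 and 148 and 183 FPKM at P2 and was not called (log2 difference 0.49). The call of Gm15179 was lost without either P14 library (adjusted p up to 0.0635). Gm17224 lies inside Casq1, the calcium store protein of fast fibres, and had 3.50 and 2.98 FPKM at P14 and 1.60 and 2.31 FPKM at P2, without a call (log2 difference 0.53, adjusted p = 0.0849). Casq1 meanwhile had 1104 and 745 FPKM at P14 and 155 and 247 FPKM at P2 (log2 difference 2.21, adjusted p = 0.00604), and 156 of the 500 exon bases of Gm17224 lie in its exons.

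Developmental transcription factor loci hold 8 members. On that list, 4 of 45 tested genes were called higher and 9 lower at P14 relative to P2, with a median log2 difference of -0.17, where 11.5% and 12.9% of all tested genes were called. None of the 8 antisense transcripts was called by limma at P14 versus P2, and 1110006G14Rik was the only one called in the other comparisons. The HOX clusters, which set position along the limb and body axis, held 4 of them at low levels. 1700109F18Rik, named Hoxd3os1 in GENCODE M21, had 1.21 and 1.795 FPKM at P14 and 2.08 and 2.48 FPKM at P2. 2700086A05Rik, named Hoxaas3, averaged 1.31 ± 0.00454 FPKM at P14 and 1.15 ± 0.348 FPKM at P2, and Gm15051, named Hotairm1, averaged 0.618 ± 0.689 FPKM at P14 and 0.849 ± 0.779 FPKM at P2 (SD, n = 2 each). Gm15050 in Hoxa3 averaged 1.02 ± 0.150 FPKM at P14 and 0.419 ± 0.0105 FPKM at P2 (log2 difference 0.51, adjusted p = 0.0644). Hotair and Hoxb3os stayed below 1 FPKM in every library. Gm13476, named Zeb2os, had 1.40 and 1.68 FPKM at P14 and 2.09 and 2.97 FPKM at P2 without a call, while Zeb2 fell (log2 difference -0.85, adjusted p = 0.0127). Gm20471 in Prrx1 and A830082K12Rik at Nr2f1 were not called.

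The tissue label was checked against fixed markers. The 8 skeletal muscle markers found in the table summed to 5557 and 7798 FPKM at P2, 7169 and 7603 at P7, and 16263 and 13042 at P14, with 4 called higher and 1 lower at P14 versus P2. Of these, Ttn is listed at 0 in P14 replicate 1 beside 926 FPKM in P14 replicate 2, so that sum misses it. Fibroblast and Schwann cell markers had no call, 1 of 5 endothelial markers rose, and 3 of 4 adipocyte, 2 of 5 erythroid, 1 of 3 macrophage and 2 of 2 tested satellite cell markers fell. Of all tested genes, 11.5% were called higher and 12.9% lower at P14 versus P2. The part of a change in cell makeup in the antisense differences was not tested.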

How the data were processed

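RNA of hindlimb muscle was sequenced in 6 libraries, 2 per stage. The deposited FPKM values were made by the authors on the genome build GRCm38. Per the submitters' processing notes, the tools included Cufflinks 2.2.1, Cuffdiff 2.2.1, TopHat2 2.0.8, FastQC 0.10.1 and CASAVA 1.2-14. Annotation, settings, strand use in counting and scaling between libraries are not given in the sources used here. The authors' comparison tables were not used.

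Values were analysed as log2(FPKM + 1) for the 13566 genes that had 1 FPKM or more in 2 or more libraries, with a mean per stage in 1 limma fit (limma 3.58.1, R 4.3.3, variance trend, 3 residual and 3.8 prior degrees of freedom). P-values are two-sided and Benjamini-Hochberg adjusted over all tested genes, and an adjusted p below 0.05 is a call. Log2 differences had a median SE of 0.193. Differences are later minus earlier stage. The code was tested on simulated data.

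Coding partners come from overlaps of the deposited gene coordinates, and strand and exons from GENCODE M21, matched by gene identifier. Coordinates count from 1. The members, gene lists and tests were chosen with earlier results of these data known. Named are the 10 most abundant members, the 6 largest rises and falls called in each comparison, members of fixed lists of imprinted, HOX and microRNA host antisense RNAs, and the 3 genes on either side of the threshold. Other members were named for holding their call without each library or for overlapping genes of the fibre and transcription factor lists, after their values were seen. List genes without a match are not analysed here, and 2 loci that met these rules are not reported here.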

Additional observations from a re-analysis of the deposited data

How the results depend on the processing

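With 48 members called at P14 versus P2, 1 at P7 versus P2, 25 at P14 versus P7 and no pair ratio called, other settings moved these counts as follows, and the causes were not tested unless the setting itself shows them. A pseudocount of 0.1 gave 16 at P14 versus P7, and a pseudocount of 5 gave 2 at P7 versus P2 and 11 ratios. Without a filter on low values the counts were 17, 0 and 0. Median-of-ratios scaling gave 3 at P7 versus P2, quantile normalization 5 there and 16 at P14 versus P7, and equal protein-coding sums 3 at P7 versus P2. With only the 4 libraries compared, 31 were called at P14 versus P2 and 40 at P14 versus P7. Restricted to partners sharing exon bases, 1 ratio was called. Leaving out each library in turn gave 14 to 50 at P14 versus P2, 0 to 3 at P7 versus P2, 0 to 42 at P14 versus P7, and 0 ratios. No log2 difference of a called member changed its sign under the alternatives run, which did not cover coding partners or uncalled members. Medians did: that of the members at P14 versus P2 was -0.170 with equal protein-coding sums, beside 0.0556, and at P7 versus P2 0.148 with median-of-ratios scaling, beside -0.0778.

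The replicate numbers of the sample titles did not pair the libraries: replicate differences of 2 stages correlated at -0.0195 (P2 and P7), -0.159 (P2 and P14) and 0.0304 (P7 and P14). The submitters' own labels number the libraries of P2 and P14 differently, and a pairing by those numbers was not tested. With the replicate number as a block, 33, 1 and 7 members and 0 ratios were called. A crossed pairing of P2 and P14, chosen after seeing the data, gave 47. Depth is unknown, so no limit from counting can be given for low values.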
